A study of Mus musculus with 6 samples.

Results

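The genes described here encode the proteins of the cytosolic ribosome, and they were picked by name: a gene counted as a member when its symbol was Rpl, Rps or Rplp, a number and at most a short suffix of the kind a, x, l or al, with or without a last digit. Of 53715 genes in the deposited table, 89 met this rule, 54 named for the large and 35 for the small subunit. The annotation lists 83 of them as protein-coding. The other 6 (Rpl6l, Rpl32l, Rps3a2, Rps3a3, Rps12l1 and Rps4l) are annotated as pseudogenes, so the name rule reached past working ribosomal protein genes. A further 8 members, Rps4l among them, are copies related to another member (Rpl3l, Rpl7l1, Rpl10l, Rpl22l1, Rpl36al, Rpl39l, Rps27l and Rps4l). That left 76 protein-coding genes, 46 of the large and 30 of the small subunit, and these are called the canonical genes below.

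The cytosolic ribosome reads mRNA on its small subunit and joins amino acids on its large subunit. Its proteins are needed in nearly equal numbers, and their mRNAs are among the most abundant in dividing and protein-secreting cells. Most of these mRNAs begin with a cytosine followed by a run of pyrimidines, the terminal oligopyrimidine or TOP element, through which the growth kinase mTORC1 and the RNA-binding protein Larp1 set how much they are translated, a step that RNA counts do not show.

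Total RNA was measured in cells sorted from the gastrocnemius-soleus complex of wild-type C57BL/6J male mice aged 14 weeks. In 3 mice the hindlimb muscles had been stimulated electrically to make 40 contractions, 20 eccentric and 20 concentric, within about 10 min, and tissue was taken 3 h later. The other group was 3 sham mice without contractions. The sort kept cells with the surface protein CD146 and without CD45 and CD31, a gate meant for pericytes, the cells that wrap capillaries. The stated group size of 3 mice equals the 3 libraries of each group, but the labels do not tie each library to its own animal. The libraries held 17520338 to 23709220 estimated reads.

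The sorted material held RNA for both surface proteins that the gate left out. Ptprc, which encodes the CD45 that the gate left out, stood at 1027, 1035 and 989 CPM (each library's counts scaled to a common total) in stimulated replicates 1, 2 and 3 and at 814, 194 and 863 CPM in sham replicates 1, 2 and 3. Pecam1, which encodes CD31, stood at 384 to 577 CPM after stimulation and at 524 to 1277 CPM in sham. Mcam, which encodes CD146, stood at 24.3 to 54.1 and 39.1 to 105 CPM. CPM are not corrected for transcript length, so these values do not rank the genes against each other. In pooled cells, fewer cells of a type and less RNA per cell cannot be told apart. Sham replicate 2 stood apart from the other libraries in lymphocyte and endothelial markers, lists that hold no ribosomal protein gene. Its mean over 17 lymphocyte markers was 3.55 log2 CPM, where the rest ran from 6.00 to 6.51, and its mean over 18 endothelial markers was 8.80, where they ran from 6.88 to 8.12. No marker of either list was at 0 in all libraries. The main results are given with and without it.

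RefSeq start sites on GRCm38.p6 were available for 64 of the 89 members, at 76 promoters. The sequences below run from 15 bases before the annotated start to 15 from it, on the transcribed strand, and show the members with the highest level of each subunit together with members in which such a run covers the annotated start. Capitals mark a C followed by at least 4 C or T whose first base lies within 5 bases of the start. Of several such C the one nearest to the start was taken, so pyrimidines just before it are in lower case.
Rps15a, chr7:118116133-118116162, minus strand: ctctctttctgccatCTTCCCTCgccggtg
Rpl13a, chr7:45128731-45128760, minus strand: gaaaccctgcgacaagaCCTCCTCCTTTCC
Rps6, chr4:86857353-86857382, minus strand: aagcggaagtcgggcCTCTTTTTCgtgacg
Rpl35, chr2:39005117-39005146, minus strand: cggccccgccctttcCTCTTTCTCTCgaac
Rps18, chr17:33955651-33955680, minus strand: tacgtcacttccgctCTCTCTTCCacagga
Rplp2, chr7:141447636-141447665, plus strand: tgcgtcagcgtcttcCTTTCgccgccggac
The next 3 have no such run at their annotated start and are shown because they had the largest differences or encode a partner of one that did.
Rps7, chr12:28635939-28635968, minus strand: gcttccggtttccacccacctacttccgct
Rpl11, chr4:136053379-136053408, minus strand: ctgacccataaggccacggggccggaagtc
Rpl5, chr5:107900513-107900542, plus strand: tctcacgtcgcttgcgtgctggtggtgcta

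A C followed by at least 4 C or T stood exactly at the start in 14 of the 76 member promoters (18.4%), against 2.51% of all 32851 promoters in the table. With the first base allowed up to 5 bases to either side, the share was 42.1% of member promoters and 18.3% of all. The run was as frequent in the large (41.7%) as in the small subunit (42.9%) on this looser count. Genes of the mitochondrial ribosome had it at the exact start in 0 of 75 promoters and within 5 bases in 22.7%. The string CTTTC, searched on the transcribed strand from 10 bases before the start to 15 from it, occurred in 19.7% of member promoters against 3.1% of all, and TCTTT in 13.2% against 2.75%. The 2 strings overlap and also lie within many of the runs. Among canonical genes, 27 had a run within 5 bases and 29 did not. In sham replicate 2 the median deviation from each gene's own mean was -0.70 (log2) with a run and -0.77 without, and in stimulated replicate 2, where the medians differed most, it was 0.06 and 0.21.

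Levels are compared between genes as TPM, the length-corrected share of transcripts in a library. The 76 canonical genes had a median TPM of 19.6 in the large and 22 in the small subunit, and 62 exceeded 10 TPM. They spanned a 60.7-fold range, from 2.23 TPM for Rpl10a to 135 TPM for Rps15a, a protein of the small subunit body. Other high members were Rpl13a at 125 TPM, the stalk gene Rplp2 at 76.3 and Rps24, whose protein takes part in maturing the small subunit's rRNA, at 73.9. The order of the genes was alike in every library, with Spearman's rho of 0.92 to 0.987 over the 76 genes in the 15 library pairs. These pairs share annotation and transcript lengths. In these total RNA libraries, transcripts of the microRNA class took 70.7 to 78% of all TPM and protein-coding transcripts 1.26 to 2.44%, so a member's TPM serves to rank genes within a library and not to compare libraries.

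Protein-coding models held 69.3 to 74.0% of the members' reads and 62.8 to 68.1% of their TPM across the libraries, and the rest fell on models that do not encode the protein. The median canonical gene had 76.9% of its TPM on protein-coding models, but genes differed. The transcript with the highest TPM was a protein-coding model in 46 of the 76 canonical genes, a retained-intron model in 13, a processed transcript (a spliced model with no open reading frame) in 12 and a model marked for nonsense-mediated decay in 5. In 31 genes less than 50% of the TPM lay on protein-coding models. Rplp2 had 9.76% there, and a 399-base retained-intron model held most of the rest. Rpl22, on the rim of the tunnel exit, had 13.4%, Rpl5 had 6.28%, and Rps23, a protein of the decoding centre, had 3.9%. The TPM of Rps15a rested on a protein-coding model of 250 bases, which gave 98.2% of it. A processed transcript of 176 bases gave 51.9% of the TPM of Rpl13a. These short models held few estimated reads, 562 to 2991 per library for Rps15a and 102 to 355 for Rpl13a. The leading model of Rplp0, of 1358 bases, held 5444 to 18129 reads at a mean of 23.5 TPM. A high rank or a large share by TPM is therefore not one by reads. Ranks from all transcripts and from protein-coding transcripts alone had a Spearman's rho of 0.745 over the 76 genes. Retained-intron models held 13.1 to 18.8% of the members' reads, with no separation of the groups.

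**Figure D1:**
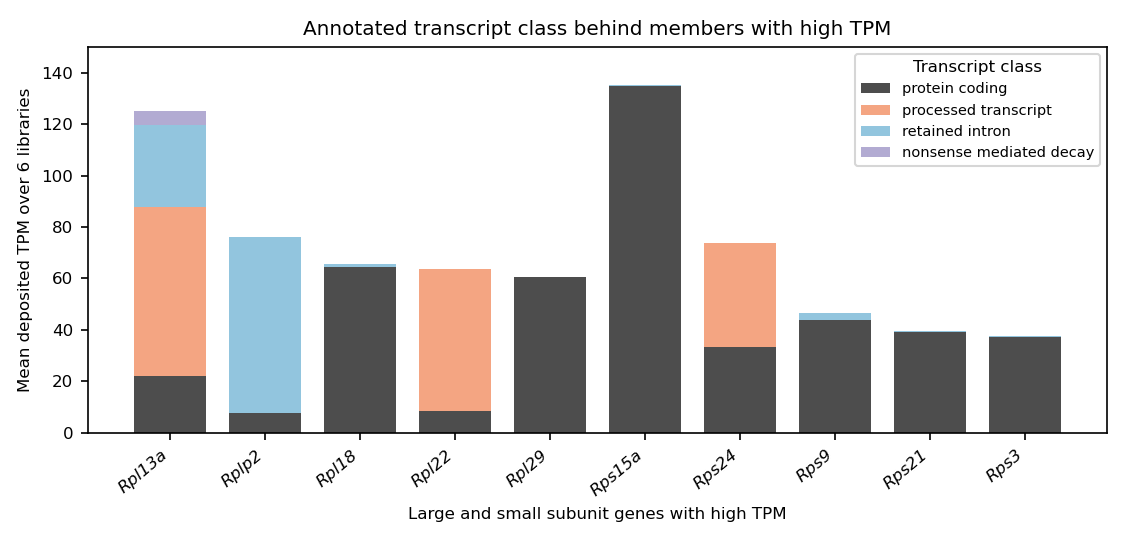
Stacked bars give the mean deposited TPM over the 6 libraries (y axis, linear from 0) of 5 large and 5 small subunit genes with high TPM (x axis), split by annotated transcript class. Rps15a, Rpl18 and Rpl29 lay almost wholly on protein-coding models, while Rpl22 and Rplp2 lay mostly on others.

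For Rps24 the split between models differed greatly between libraries. Its leading model, a processed transcript of 461 bases, stood at 71.0, 21.5 and 72.8 TPM in stimulated replicates 1 to 3 and at 45.6, 0.161 and 27.7 TPM in sham replicates 1 to 3. Sham replicate 2 thus had 9 estimated reads on it where the other libraries had 2671 to 7957. Over all its transcripts Rps24 was lower in that library by much less, at 240 CPM, the others having 421 to 645. With reads of protein-coding transcripts only, an alternative chosen after seeing the data, its difference between the groups turned from 0.36 to -0.20 (log2).

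Each library was then described by how far the canonical genes lay from their own mean over the 6 libraries. The widest gap was between 2 sham libraries, and most of the genes shared it. In the large subunit the median deviation was 0.08, 0.17 and 0.31 (log2) in stimulated replicates 1 to 3 and -0.26, -0.70 and 0.46 in sham replicates 1 to 3. In the small subunit it was 0.06, 0.17 and 0.33 after stimulation and -0.29, -0.80 and 0.48 in sham. All 76 genes lay below their own mean in sham replicate 2, and all 46 large and 28 of the 30 small subunit genes lay above it in sham replicate 3. For 46 of the 76 genes, all 3 stimulated libraries lay between sham replicates 2 and 3.

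**Figure D2:**
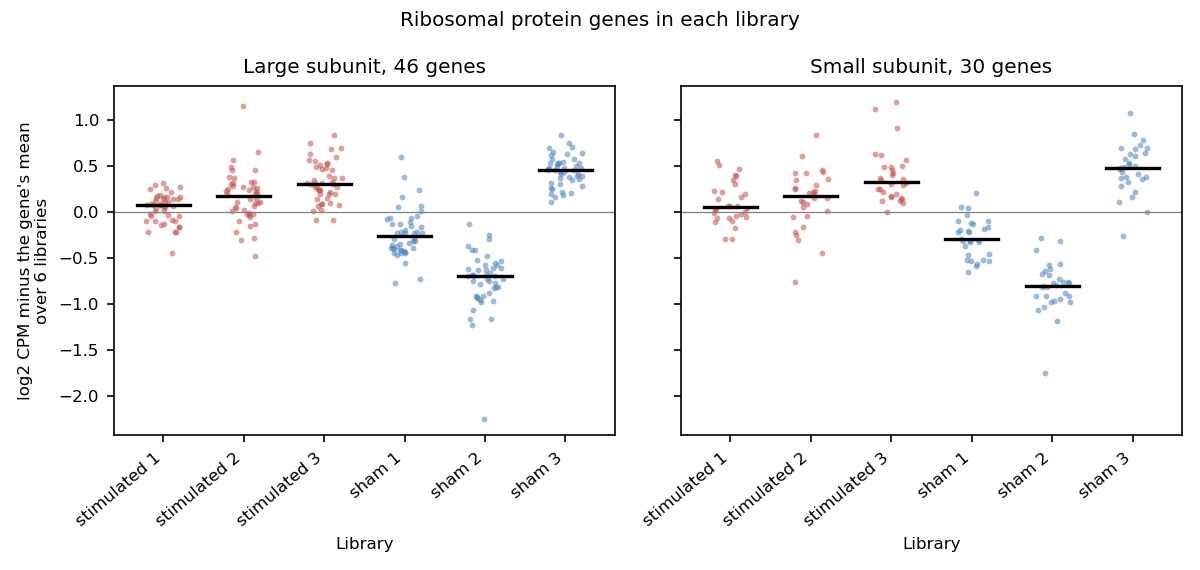
Each point is a canonical gene, plotted as its log2 CPM minus its mean over the 6 libraries (y axis) in each library (x axis), and bars mark medians. Sham replicate 2 is lowest (medians -0.70 and -0.80), sham replicate 3 is highest (0.46 and 0.48), and the stimulated libraries lie between them.

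Among the 84 members with enough reads to be tested, sham replicate 2 was the lowest of the 6 libraries in 71, while it was lowest in 21.4% of all 26559 tested genes. Sham replicate 3 was the highest in 50 of the 84, against 14.4% of all tested genes. In sham replicate 3 the mean lymphocyte marker level was 6.00 log2 CPM, next to 6.04 in sham replicate 1, and the mean endothelial level was 8.12, between the 7.5 and 8.80 of the other two. In sham replicate 2 the lymphocyte markers were low like the members and the endothelial markers were high. There the summed lymphocyte markers came to 304 CPM. In the other sham libraries they came to 1826 and 2633 CPM, and they came to 1925 to 2461 CPM after stimulation. The summed endothelial markers came to 13489 CPM there, to 5460 and 8046 CPM in the 2 remaining sham libraries and to 3372 to 5194 CPM after stimulation. The part of either cell type in the members' levels was not tested.

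The genes did not all follow this pattern equally. Rpl27a ranged over only 0.81 log2 units across the libraries and Rpl41 over 0.83, and 6 of the 76 genes stayed within 1 unit. The median range was 1.29, next to 1.3 for all tested genes. Rpl12 had the widest range, 3.41 units, with 162 CPM in stimulated replicate 2 and 15.2 CPM in sham replicate 2, and 0.13% of its TPM lay on protein-coding models. Rps15a ranged over 2.31 units and stood apart only in sham replicate 2, at 38.5 CPM, with 149 to 191 CPM elsewhere. Rps23 and Rps7 had another pattern, with their highest value in stimulated replicate 3 (114 and 230 CPM) and a far lower one in stimulated replicate 2 (29.2 and 89.2 CPM).

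**Figure D3:**
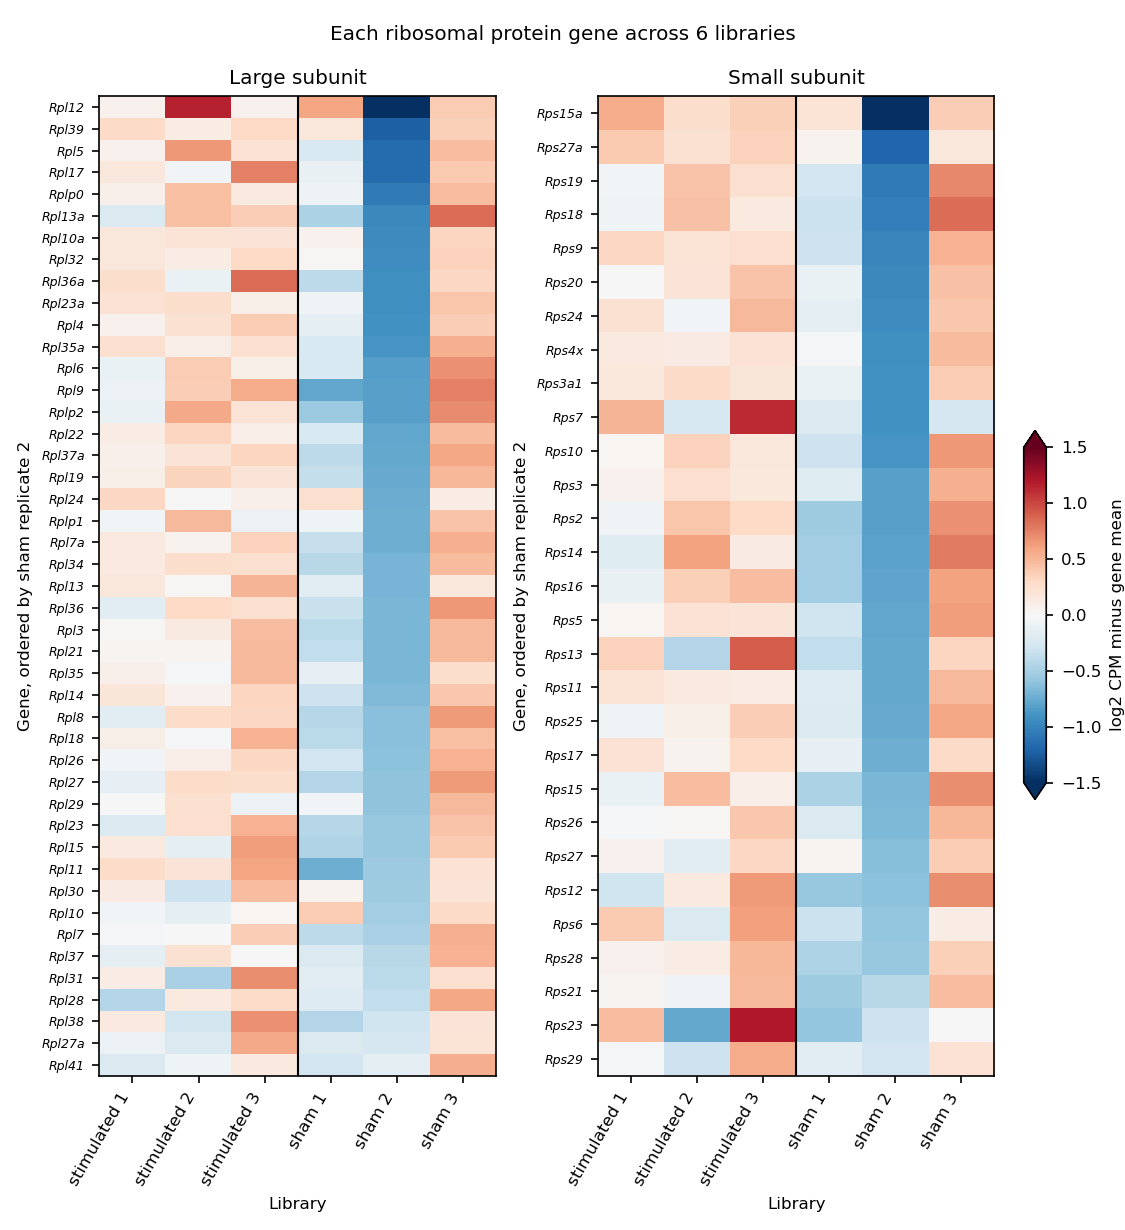
Rows are canonical genes ordered by sham replicate 2, columns are the 6 libraries, and colour gives log2 CPM minus the gene's mean, with colours saturated beyond 1.5. The sham replicate 2 column is below the mean in every row, and Rpl12, Rps23 and Rps7 vary between stimulated libraries as well.

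The share of estimated reads and of protein-coding TPM on ribosomal protein genes was again lowest in sham replicate 2 and highest in sham replicate 3. Members took 1.74, 1.87 and 1.82% of estimated reads in the stimulated libraries and 1.46, 0.952 and 2.01% in the sham libraries. Of the TPM on protein-coding transcripts they took 8.87% ± 0.70 (SD, n = 3) after stimulation and 7.37% ± 2.55 (SD, n = 3) in sham. The groups overlapped on both scales, and the spread of the sham libraries exceeded the difference. By total TPM, most of which lay on the microRNA class, sham replicate 2 was also lowest, at 1771. There stimulated replicate 3 was highest, at 2343, and sham replicate 3 stood at 2239. With 3 libraries against 3, an exact two-sided permutation test has 0.1 as its smallest p, and no such test was made of single values.

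The balance of the 2 subunits was alike in the libraries. The mean log2 TPM of the canonical large subunit genes minus that of the small was -0.12 ± 0.05 (SD, n = 3) after stimulation and -0.06 ± 0.04 (SD, n = 3) in sham. Library values ran from -0.15 to -0.06 and from -0.11 to -0.03, so the groups overlapped. Sham replicate 2, the lowest library for both subunits, had a balance of -0.03.

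The comparison of stimulated with sham libraries asks which of these genes differed 3 h after contraction. No member passed the test. Of the tested members, 47 of 50 in the large subunit and 31 of 34 in the small were higher after stimulation, with median log2 fold changes of 0.29 and 0.24, against 48.0% of all tested genes and a median of -0.02. By edgeR's quasi-likelihood test with Benjamini-Hochberg adjustment, 0 of 26559 genes were called (0.0%), the smallest adjusted p being 0.0504 over all genes and 0.65 among members. Before adjustment, p lay under 0.05 for 1872 genes (7.05%) and for 2 members, 1 higher (Rps7, against 2.64% of all genes) and 1 lower (the pseudogene Rps4l, against 4.41%). DESeq2 called 229 genes and 0 members, and limma voom 0 genes and 0 members, each with 2 members at an unadjusted p under 0.05. Mean log2 CPM over the tested members was 7.11 ± 0.15 (SD, n = 3) after stimulation and 6.75 ± 0.56 (SD, n = 3) in sham for the large subunit, and 6.76 ± 0.15 and 6.42 ± 0.61 (SD, n = 3) for the small.

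**Figure D4:**
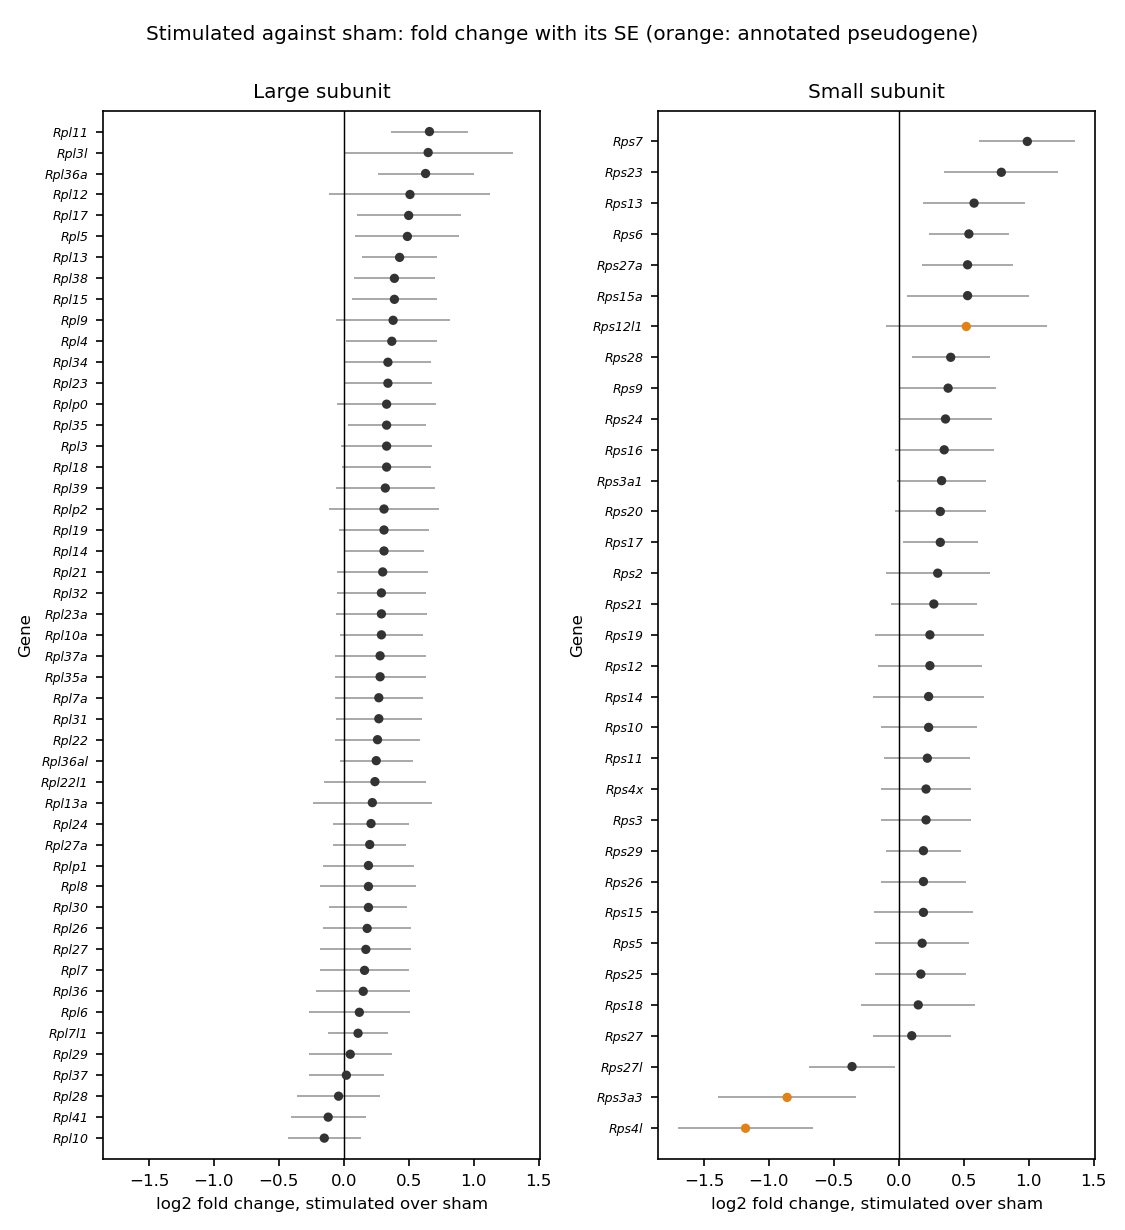
Points are log2 fold changes of stimulated over sham (x axis) with their SE for tested members (y axis), in orange where the member is an annotated pseudogene. Most points lie between 0 and 0.5 with an SE of like size, and no member passed the adjusted threshold.

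The size of that difference depended most on sham replicates 2 and 3, in opposite directions. Without sham replicate 2, 33 of 51 tested large subunit members and 18 of 34 small subunit members were higher, with medians of 0.03 and 0.02, and 50.9% of all genes were higher. In that fit 0 members had an unadjusted p under 0.05, against 3.97% of all genes (1.97% higher). Without sham replicate 3 the medians were 0.66 and 0.76, and 39 members (22 large and 17 small) had an unadjusted p under 0.05, all higher, against 5.45% of all genes that were higher at that p. Still 0 genes passed after adjustment in either fit. Leaving out any of the other 4 libraries gave medians of 0.20 to 0.35 in the large and 0.14 to 0.38 in the small subunit.

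**Figure D5:**
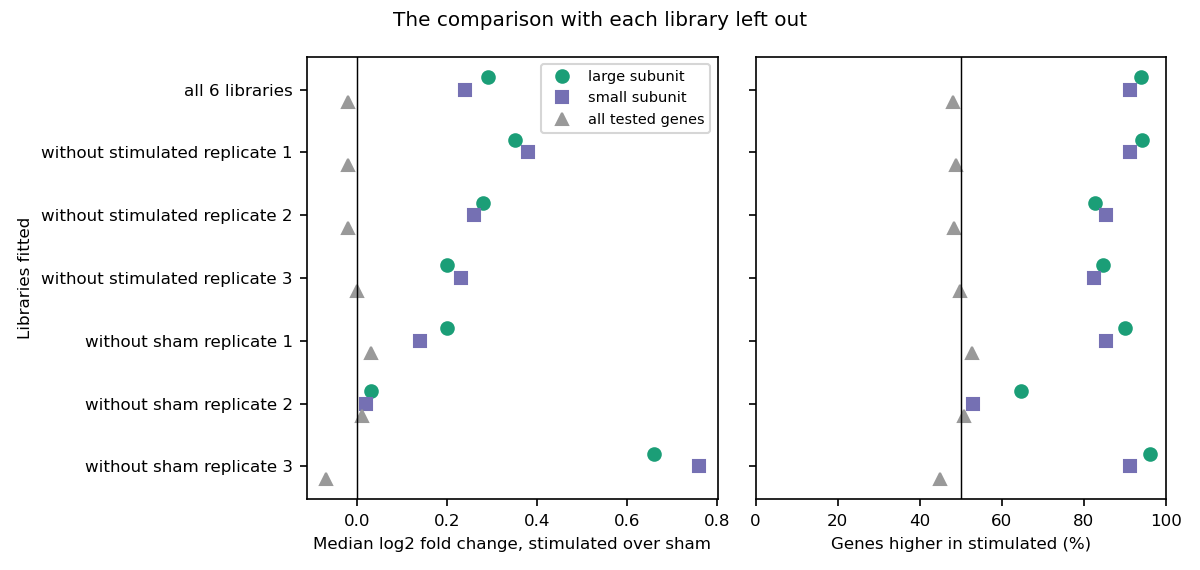
The left panel gives the median log2 fold change and the right panel the percentage of genes higher after stimulation (x axes) for large subunit members, small subunit members and all tested genes, with all 6 libraries or with 1 left out (y axis). Members lie next to all genes only without sham replicate 2, at 0.03 and 0.02, and farthest from them without sham replicate 3, at 0.66 and 0.76.

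The large subunit genes are described by the part of the ribosome they build. The stalk, which Rplp0, Rplp1 and Rplp2 form to recruit elongation factors, had 3 of 3 genes higher, at 0.33, 0.19 and 0.31 (log2). Rplp0 stood at 676, 875 and 708 CPM in stimulated replicates 1 to 3 and at 608, 306 and 880 CPM in sham replicates 1 to 3. Its sham values enclosed all the stimulated ones, and its difference without sham replicate 2 was 0.02. Rplp1 was at 377, 545 and 365 CPM after stimulation and 370, 233 and 523 CPM in sham, and it turned to -0.06 without that library.

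The 5S particle, in which Rpl5 and Rpl11 bind the 5S rRNA and which can bind the p53 regulator Mdm2 when free of the ribosome, had the largest median of the large subunit groups, 0.58. Rpl11 (chr4:136028265-136053428, minus strand) stood at 35, 33.1 and 43.8 CPM after stimulation and at 17.4, 19.7 and 33.7 CPM in sham. Only sham replicate 3 reached into the stimulated range. Its log2 fold change was 0.66 (SE 0.30, unadjusted p = 0.057, adjusted p = 0.71, edgeR), and 0.55 without sham replicate 2. Rpl5 stood at 246, 371 and 274 CPM after stimulation and at 202, 106 and 325 CPM in sham, with overlap and a fold change of 0.49 (SE 0.40, adjusted p = 0.92, edgeR) that became 0.18 without sham replicate 2. Rpl11 had 26.7% of its TPM on protein-coding models.

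Near the peptidyl transferase centre, where amino acids are joined, the genes went opposite ways. Rpl3 was higher by 0.33, or 0.11 without sham replicate 2, and Rpl10, whose protein joins late in the maturation of the large subunit, had the lowest value of the large subunit, -0.15 (SE 0.28, adjusted p = 0.98, edgeR). Rpl10 stood at 69.4, 65.2 and 72.6 CPM after stimulation and at 93.0, 49.8 and 87.1 CPM in sham. Its stimulated libraries lay close together, inside a wide sham range. The sign of Rpl10 did not hold in every fit: it was 0.14 with the reads of its pseudogenes added and 0.01 without sham replicate 1.

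Along the exit tunnel, Rpl4 and Rpl39, whose proteins line its wall, were higher by 0.37 and 0.32, and without sham replicate 2 by 0.10 and -0.02. All 8 genes of the rim, where the new chain leaves and folding and targeting factors dock, were higher, from 0.18 for Rpl26 to 0.50 for Rpl17, with a median of 0.30. Without sham replicate 2, 7 of the 8 were higher, from -0.04 for Rpl26 to 0.33 for Rpl38, with a median of 0.10. Of the remaining canonical large subunit genes Rpl36a, which lies near the exit site for tRNA, was highest at 0.63 (SE 0.37, adjusted p = 0.81, edgeR). It stood at 29.3, 22.7 and 43.6 CPM after stimulation and at 18.6, 12.8 and 30.1 CPM in sham, with 4.32% of its TPM on protein-coding models. The value varied widely with the libraries and reads used. It was 0.39 without sham replicate 2, 1.03 without sham replicate 3, 0.34 without stimulated replicate 3, 0.32 with pseudogene reads added and 1.30 with reads of protein-coding transcripts only. The other 2 large subunit members below 0 were Rpl41, a very short protein between the subunits, at -0.12, and Rpl28 at -0.04. Rpl41 stood at 168, 187 and 216 CPM after stimulation and at 160, 178 and 285 CPM in sham.

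In the small subunit all 30 canonical genes were higher, 14 of 14 of the head with a median of 0.23 and 16 of 16 of the body and platform with a median of 0.31. Without sham replicate 2 those counts were 7 of 14 and 10 of 16, with medians of -0.02 and 0.06. Rps7 (chr12:28630854-28635953, minus strand), a protein of the body and platform needed for rRNA processing, had the largest log2 fold change above 0 of the tested members. It stood at 150, 89.2 and 230 CPM after stimulation and at 90.9, 56.3 and 88.5 CPM in sham. Stimulated replicates 1 and 3 lay above every sham library, and replicate 2 lay among them. The log2 fold change was 0.99 (SE 0.37, unadjusted p = 0.025, adjusted p = 0.65, edgeR), and 0.81 without sham replicate 2 and 0.61 without stimulated replicate 3. Its leading model, a processed transcript of 369 bases, held 53.2% of its TPM, and 16.4% lay on protein-coding models.

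Rps23 was next at 0.79 (SE 0.44, adjusted p = 0.80, edgeR), with 68.6, 29.2 and 114 CPM after stimulation and 33.1, 40.0 and 49.5 CPM in sham. Stimulated replicate 2 was its lowest library and stimulated replicate 3 its highest, and 94.9% of its TPM lay on a retained-intron model of 450 bases. Without stimulated replicate 3 the fold change was 0.26, and with pseudogene reads added it was 0.23. Rps6, the main phosphorylation target of the S6 kinases downstream of mTORC1, was higher by 0.54 (SE 0.31, adjusted p = 0.81, edgeR), with 207, 137 and 243 CPM after stimulation and 126, 106 and 171 CPM in sham. Stimulated replicate 2 lay between sham libraries, as it did for Rps7. The fold change of Rps6 was 0.35 without stimulated replicate 3 and 0.35 with pseudogene reads added.

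Rps27a, which is made as a fusion with ubiquitin, was the only tested member whose groups did not overlap, where 6.12% of all tested genes were higher without overlap and 5.89% lower. It stood at 115, 102 and 111 CPM after stimulation and at 90.6, 38.3 and 98 CPM in sham, with a fold change of 0.53 (SE 0.35, adjusted p = 0.86, edgeR). The nearest libraries, at 102 and 98 CPM, were close, and without sham replicate 2 the fold change was 0.22. Among small subunit genes with high levels, Rps3, Rps9, Rps21 and Rps15a were higher by 0.21, 0.38, 0.27 and 0.53, and by -0.06, 0.09, 0.13 and 0.11 without sham replicate 2.

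The related copies were mostly rare. Rpl3l, the form of Rpl3 made in striated muscle fibres, stood at 0.21 to 0.887 CPM across the 6 libraries, and it made up 0.0213 to 0.14% of the TPM it shared with Rpl3. Its fold change was 0.65 (SE 0.65, adjusted p = 0.95, edgeR), or 0.32 without sham replicate 3. The copies Rpl10l and Rpl39l, known from the male germ line, had too few reads to be tested, at 0.0884 to 0.65 CPM and 0 to 0.489 CPM. Rpl22l1 made up 4.23% ± 1.78 (SD, n = 3) of the TPM of its pair with Rpl22 after stimulation and 4.23% ± 0.40 (SD, n = 3) in sham. Rpl36al made up 22.2% ± 6.78 and 26.8% ± 4.09 (SD, n = 3) of its pair with Rpl36a on all transcripts. On protein-coding transcripts alone its share was 84.0% ± 1.90 and 91.4% ± 3.62 (SD, n = 3), so that which gene of the pair led depended on the models counted. Reads that near-identical copies share cannot be assigned with certainty, and these shares carry that limit.

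Rps27l, a copy of Rps27 that is induced by p53, was the only protein-coding member of the small subunit below 0, at -0.36 (SE 0.33, adjusted p = 0.95, edgeR). It stood at 5.74, 3.70 and 6.01 CPM after stimulation and at 5.20, 8.39 and 6.20 CPM in sham. It ran the other way from the canonical genes, with sham replicate 2 its highest library, and without that library its fold change was -0.14. Its share of the TPM of the pair with Rps27 was 14.8, 11.6 and 13.3% after stimulation and 13.9, 29.4 and 13.2% in sham. On protein-coding transcripts the share was 12.5, 12.9 and 10.8% against 25.6, 58.9 and 20.2%, without overlap of the groups. On estimated reads the groups overlapped, at 17.7, 12.2 and 18.2% against 21.6, 32.8 and 13.4%. The shares of Rpl36al on protein-coding transcripts did not overlap either, at 82.2 to 86.0% against 87.3 to 93.8%. Nor did those of Rpl39l, at 0 to 0.198% against 0.205 to 1.11%, from few reads. For Rpl36al the groups overlapped on estimated reads, at 32.1 to 44.4% against 39.1 to 46.0%. They also overlapped on all transcripts, at 16.9 to 29.8% against 24.3 to 31.5%. Its partner Rpl36a had a mean of only 0.238 TPM on protein-coding transcripts. How often other pairs of genes separate in this way was not tested.

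Of the 6 annotated pseudogenes, Rps12l1 had the level of a working gene, at 18.8 TPM. It stood at 107, 117 and 104 CPM after stimulation and at 47.4, 19.3 and 161 CPM in sham, so its sham libraries lay on both sides of the stimulated ones. Its parent Rps12 is a canonical member, and reads of the pair may be split. Rps4l stood at 3.37, 3.40 and 4.38 CPM after stimulation and at 2.75, 13.7 and 8.82 CPM in sham. Its fold change was -1.18 (SE 0.52, unadjusted p = 0.048, adjusted p = 0.71, edgeR), and -0.64 without sham replicate 2, its highest library. Rps3a3, at 0.474 to 1.38 CPM, was lower by -0.86 (adjusted p = 0.84, edgeR). Rpl6l, Rpl32l and Rps3a2 had too few reads to be tested, none above 0.533 CPM. Rpl32l, at 0.263 to 0.398 CPM after stimulation and 0 to 0.158 CPM in sham, did not overlap between groups, at counts of a few reads.

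Other pseudogenes named for members drew reads as well. The table held 282 of them, and they took 14.6 to 16.9 reads for every 100 on members. The ratio was 15.7 ± 1.15 (SD, n = 3) after stimulation and 16.4 ± 0.35 (SD, n = 3) in sham. Adding these reads to the members gave medians of 0.28 in the large and 0.23 in the small subunit, with 0 members called.

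Genes that work with the ribosome were read from fixed lists. Of 5 ribosomal proteins that the name rule leaves out, 4 were tested and 4 were higher, with a median of 0.28. Without sham replicate 2, 3 of the 4 were higher with a median of 0.04. Rpsa, a small subunit protein and itself a TOP mRNA, followed the members: 1159, 1299 and 1241 CPM after stimulation and 873, 395 and 1542 CPM in sham (0.40, SE 0.44, adjusted p = 0.97, edgeR), with 0.03 left without sham replicate 2. Rack1 and Fau were higher by 0.35 and 0.21. Translation elongation genes were higher in 10 of 12 (median 0.18), initiation genes in 30 of 40 (median 0.09) and other TOP mRNAs in 9 of 10 (median 0.12). Without sham replicate 2 those counts were 6 of 12, 21 of 40 and 4 of 10. Genes of the mitochondrial ribosome, made in the same cytosol for another ribosome, were higher in 42 of 78, with a median of 0.01. None of these lists held a gene past the adjusted threshold.

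Genes that make rRNA were mostly higher after stimulation with or without sham replicate 2. Of 25 RNA polymerase I and rRNA factors, 24 were higher with a median of 0.31, and 4 had an unadjusted p under 0.05, all higher, against 2.64% of all genes. Without sham replicate 2, 22 of 25 were higher with a median of 0.17. The list's mean was 5.02, 5.20 and 5.09 log2 CPM in stimulated replicates 1 to 3 and 4.70, 4.38 and 5.09 in sham replicates 1 to 3. Sham replicate 3 thus lay within the stimulated range, and the groups overlapped. The genes given next were picked from the list by p. Ppan, which acts in large subunit assembly, stood at 36.6, 36.9 and 33.2 CPM after stimulation and at 15.4, 17.7 and 23.5 CPM in sham (0.92, SE 0.25, unadjusted p = 0.0048, adjusted p = 0.50, edgeR). Its groups did not overlap, where 6.12% of all tested genes were higher without overlap. Polr1a, the largest subunit of RNA polymerase I, stood at 82.4, 68.9 and 60 CPM after stimulation and at 31.5, 33.3 and 55.6 CPM in sham (0.81, SE 0.29, unadjusted p = 0.02, adjusted p = 0.63, edgeR).

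Among 19 regulators of TOP mRNAs and mTORC1, 12 were higher and 7 lower, with 1 at an unadjusted p under 0.05 in each direction. Of all tested genes, 2.64% were higher and 4.41% lower at that p (edgeR). Deptor, which binds and inhibits mTOR, stood at 17.0, 21.3 and 21.5 CPM after stimulation and at 34.4, 81.2 and 43.2 CPM in sham (-1.41, SE 0.34, unadjusted p = 0.0026, adjusted p = 0.43, edgeR). Ddit4, a stress-induced inhibitor of mTORC1, stood at 30.4, 45.0 and 48.4 CPM after stimulation and at 15.6, 22.3 and 27.2 CPM in sham (0.93, SE 0.29, unadjusted p = 0.012, adjusted p = 0.59, edgeR). The groups did not overlap for either of these inhibitors, which were picked from the list by p. Of all tested genes, 5.89% were lower and 6.12% higher without overlap. Larp1, which binds the TOP element, was higher by 0.43 (adjusted p = 0.81, edgeR). Of 8 tested genes for chaperones of ribosomal proteins and their link to p53, 7 were higher, with a median of 0.25 that was 0.20 without sham replicate 2. Trp53, which encodes p53, was higher by 0.62 (SE 0.25, unadjusted p = 0.035, adjusted p = 0.67, edgeR).

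Cell type markers also went in set directions between the groups, though none passed the adjusted threshold. Of all tested genes, 2.64% were higher and 4.41% lower at an unadjusted p under 0.05 (edgeR). All 12 tested neutrophil markers were higher after stimulation, 10 of them at an unadjusted p under 0.05, with summed levels of 161 to 243 CPM against 60.7 to 73.9 CPM in sham. All 18 endothelial markers were lower, 15 at an unadjusted p under 0.05, and their median of -1.08 became -0.63 without sham replicate 2. Lymphocyte markers were higher in 16 of 17, with a median of 0.77 that became 0.35. Pericyte markers were lower in 11 of 12, with summed levels of 189 to 428 CPM against 352 to 742 CPM, and their median of -0.91 became -0.50. Smooth muscle markers were lower in 8 of 8 (median -1.04), with 103 to 254 CPM against 176 to 469 CPM, and without sham replicate 2 the median was -0.39 with 2 of the 8 higher. Fibro-adipogenic markers were lower in 10 of 10 (median -0.48), with 1090 to 2796 CPM against 1759 to 3700 CPM, and in 10 of 10 without it (median -0.23). Macrophage and monocyte markers were lower in 10 of 12 (median -0.33), with 552 to 855 CPM against 383 to 1274 CPM, but without sham replicate 2 they were higher in 11 of 12 (median 0.20). The summed pericyte, smooth muscle, fibro-adipogenic and macrophage levels were each highest in sham replicate 2. Satellite cell markers were higher in 5 of 6 (median 0.19), with 22.3 to 62.8 CPM against 27.9 to 40.7 CPM, and without sham replicate 3 in 2 of 6 (median -0.06). All 12 myofibre markers were higher, with summed levels of 62.9 to 192 CPM against 41.4 to 61.6 CPM. Of the lists that follow RNA quality, nuclear retained RNAs were higher in 4 of 7 (median 0.04), with summed levels of 16444 to 20612 CPM after stimulation and 13813 to 15017 CPM in sham, and in 7 of 7 without sham replicate 2 (median 0.34). Mitochondrially encoded mRNAs were higher in 12 of 13 (median 0.12), with overlapping groups of 14747 to 22188 and 13243 to 19302 CPM, and in 7 of 13 without that library (median 0.02). No marker of these lists was at 0 in all libraries. The part of any of these in the ribosomal protein results was not tested.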

How the data were processed

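Total RNA libraries were made with a stranded kit for low input, per the labels' protocols, and sample titles gave the groups and replicate numbers. According to the submitters' processing notes, the tools included Salmon 0.8.2, Trimmomatic 0.36, edgeR, R 3.5.1 and bcl2fastq 2.17.1.14, and the build was GRCm38. Roles and settings were not given in the sources used here. Deposited were estimated counts for each gene and, for each transcript, TPM and estimated counts, per the file headers. In the 82 members above 0.1 TPM in every library, the ratio of gene value to summed TPM was constant over libraries within 1% in 82 after scaling each library, so the gene values follow TPM and are not sums of reads.

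Estimated counts were rounded. Genes were kept by filterByExpr (minimum count 10, minimum total 15), scaled by TMM and tested with edgeR 4.0.16 in R 4.3.3 by the robust quasi-likelihood F test on all 26559 genes, with Benjamini-Hochberg adjustment. The SE is the fold change divided by the square root of F. The 5 members that failed this filter were Rpl10l, Rpl39l, Rpl6l, Rpl32l and Rps3a2. Mean log2 CPM uses a prior count of 2. The labels do not tie replicates to separate animals one by one, so p-values measure the spread between these libraries.

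The members and lists were chosen with earlier results of these data known. Members named were the 6 of each subunit with the highest TPM, the 5 with the smallest p in each direction, the stalk, 5S, peptidyl transferase, tunnel wall and paralogue genes, Rps6, Rps27a, untested members and the extremes of each subunit. Genes outside the members were named by p, up to 3 for each list. Rpl12, Rpl17, Rpl26, Rpl27a, Rpl28, Rpl10a, Rpl35, Rps12, Rps12l1 and Rps18 were chosen after their values or sequences were seen. A few genes that the rule names are not reported here.

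Alternatives were DESeq2 1.42.0, limma voom 3.58.1, other scalings and filters, dropping each library in turn, a block for the replicate number, transcript counts summed to genes, a table without mitochondrial and ribosomal RNA genes, and pseudogene reads added. The newer quasi-likelihood form, protein-coding genes only and reads of protein-coding transcripts only were added after seeing the data. The fit was tested on simulated data. No pair of replicates agreed within sampling noise (chi-square per gene 24.1 to 111), so none was treated as 1 library deposited more than once.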

Additional observations from a re-analysis of the deposited data

How the results depend on the processing

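No member was called under any alternative run, and the median fold change of both subunits stayed above 0 in each. Over all genes, 229 were called by DESeq2, 109 with no filter, 3 with RLE size factors, 3 with TMM factors computed without the members, 3 with pseudogene reads added, 3 with the newer quasi-likelihood form, 2 with protein-coding genes only, 1 with counts summed from transcripts, 1 with reads of protein-coding transcripts only, and 0 to 1 with a library left out. Small subunit members higher ranged from 18 to 31 with a library left out, their median from 0.02 to 0.76, and members with an unadjusted p under 0.05 from 0 to 39. That last count was 1 with counts summed from transcripts and 4 with no filter.

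Of the named genes, Rpl10 was 0.14 with pseudogene reads added. With reads of protein-coding transcripts only, Rps12 was -0.80, Rps24 -0.20, Rpl10a -0.20, Rpl22l1 -0.02 and Rpl28 0.02. With a library left out, values ran from -0.37 to 0.01 for Rpl10, -0.10 to 0.94 for Rpl13a, -0.03 to 0.58 for Rpl22l1, -0.18 to 0.37 for Rpl29, -0.02 to 0.62 for Rpl39, -0.28 to 0.19 for Rpl41, -0.02 to 0.58 for Rpl7, -0.02 to 0.28 for Rpl7l1, -0.06 to 0.52 for Rplp1, -0.13 to 0.36 for Rps27, -0.06 to 0.64 for Rps3 and -0.08 to 0.58 for Rps4x. Among the genes chosen after their values or sequences were seen, the sign also turned in 5. Values ran from -0.19 to 0.84 for Rps18, -0.04 to 0.82 for Rps12 and -0.04 to 0.59 for Rpl26. For Rpl28 they ran from -0.21 to 0.32, and for Rpl27a from -0.09 to 0.37. The cause of these turns was not tested.

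Deviations of stimulated and sham libraries with the same replicate number correlated at 0.317, -0.161 and 0.128. Those of libraries with different numbers correlated at -0.329 to 0.226. Whether a shared number marks shared handling was not tested. With the replicate number as a block, 0 genes were called, and the medians were 0.38 in the large and 0.37 in the small subunit. Depth limits the 5 untested members, all under 1 CPM.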
